A study of Homo sapiens with 15 samples.

Results

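The 10 genes described here are core parts of the Hippo pathway and its nuclear output: the coactivators YAP1 and WWTR1 (TAZ), the DNA-binding factors TEAD1 and TEAD4, the target genes CTGF, CYR61 and ANKRD1, and the inhibitors AMOTL1, AMOTL2 and LATS2. They were taken by exact gene name from 19845 names in the deposited tables, and all 10 were found. Their RNA was followed in HCC1954, a breast cancer line of human origin that is HER2-positive, across 4 groups of cultured cells. M-BM cells came from metachronous brain metastases (4 libraries), Lat cells were latent or residual brain-tropic cells (4), S-BM cells came from synchronous brain metastases (4), and Pa was the parental line (3). All groups are derivatives of this line; the labels give no added gene, drug or deletion for any of them, and every label describes the same overnight culture before RNA extraction. Nothing in the labels ties a library to its own animal or culture, and p-values here therefore reflect only how far these samples spread, which could be a technical spread.

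In the Hippo pathway, a cascade of kinases ends in LATS1 and LATS2, which phosphorylate YAP1 and TAZ and keep them out of the nucleus. Unphosphorylated YAP1 and TAZ enter the nucleus, bind TEAD factors and switch on genes that include CTGF, CYR61, ANKRD1, AMOTL2 and LATS2, of which AMOTL2 and LATS2 feed back as inhibitors. The pathway is known for reading cell density, shape and adhesion, and YAP1 and TAZ are controlled mainly as proteins, so RNA levels do not give their location or activity.

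Values are the authors' normalized counts per gene and library, with 13.3 to 21.8 M reads per library. A count of 3 reads corresponds to a value of 0.136 to 0.225, which covers counting error only. S-BM 3 and S-BM 4 stood apart from their group: ERBB2, the HER2 gene, was at 353 and 367 in them, against 4109 in S-BM 1 and 4642 in S-BM 2, and their counts were closer to each other (chi-square per degree of freedom 4.08) than those of the other S-BM pairs (42.9 to 87.8). Where leaving out this pair ended a call or moved a fold change by over 1.5 times for a gene named here, the value without it is given. This check is not reported here for NT5E and TJP1 in M-BM or for CCDC80 and LIMD1 in Lat. Genes that no longer passed the filter without this pair are named as such. Lat 3 also differed more from each other Lat library (47.8 to 55.2 on the same measure) than those did from one another (4.86 to 17.1). All 6 epithelial markers were found, with summed values of 5139 to 7008 in M-BM, 5031 to 6202 in Lat, 3730 to 8518 in S-BM and 9549 to 10163 in Pa, of which ERBB2 was a large part. KRT8 (425 to 676 in M-BM, 486 to 597 in Lat and 999 to 1157 in S-BM) and CDH1 (415 to 608, 348 to 445 and 681 to 840) were lower in M-BM and Lat than in S-BM without overlap, and the part of this in the results was not tested. The marker sums for astrocytes (0 to 0.139) and leukocytes (0.0628 to 0.518) were near 0, and fibroblast sums (3.25 to 21.5, nearly all COL1A1) and neuron sums (0.0666 to 4.4) were low. The endothelial sum was 4.77 to 11.3 in M-BM, 6.97 to 7.92 in Lat, 14.3 to 27.7 in S-BM and 20.6 to 28.5 in Pa, and its part in the results was not tested. In bulk RNA, fewer cells that express a gene and less RNA per cell cannot be told apart.

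TEAD factors bind the sequence GGAATG, and the promoters are shown because several of these genes are known TEAD targets. RefSeq promoter windows of GRCh38.p14 were matched for 7 of the 10 genes; TEAD1, TEAD4 and CYR61 had no match. Each window below is the 250 bases before an annotated start, on the gene's strand and 5′ to 3′, and capitals mark GGAATG or its reverse complement CATTCC. Of 35116 promoters in the table, 11.9% held at least 1 match in such a window, 0.94% at least 2 and 0.0826% at least 3. CTGF (RefSeq CCN2, chr6:131951373-131951622, minus strand) held 3 matches, beginning 169, 104 and 95 bases before the start. ANKRD1 (chr10:90921088-90921337, minus strand) held 2, at 220 and 128 bases. YAP1 itself (chr11:102110197-102110446, plus strand) held 1, at 162 bases. AMOTL2 held 1 in reverse orientation, at 69 bases, in one of its annotated windows (chr3:134374448-134374697, minus strand). LATS2 (chr13:21061587-21061836, minus strand) held none, nor did AMOTL1 or WWTR1. A match describes letters in this window, and its absence says only that these letters are not there.
CTGF: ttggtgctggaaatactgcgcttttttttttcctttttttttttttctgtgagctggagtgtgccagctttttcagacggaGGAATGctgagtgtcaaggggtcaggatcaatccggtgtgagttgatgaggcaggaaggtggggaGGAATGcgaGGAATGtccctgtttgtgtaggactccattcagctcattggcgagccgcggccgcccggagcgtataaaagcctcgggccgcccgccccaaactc
ANKRD1: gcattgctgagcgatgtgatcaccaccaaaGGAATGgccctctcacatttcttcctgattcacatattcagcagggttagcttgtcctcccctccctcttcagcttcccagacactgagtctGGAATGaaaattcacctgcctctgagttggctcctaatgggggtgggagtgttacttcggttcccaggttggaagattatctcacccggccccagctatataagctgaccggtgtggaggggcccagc
YAP1: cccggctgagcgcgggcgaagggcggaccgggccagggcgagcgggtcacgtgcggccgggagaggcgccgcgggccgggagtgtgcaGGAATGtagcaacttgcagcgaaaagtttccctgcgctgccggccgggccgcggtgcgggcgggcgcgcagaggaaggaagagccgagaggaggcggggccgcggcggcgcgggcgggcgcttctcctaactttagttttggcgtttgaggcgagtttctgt
AMOTL2: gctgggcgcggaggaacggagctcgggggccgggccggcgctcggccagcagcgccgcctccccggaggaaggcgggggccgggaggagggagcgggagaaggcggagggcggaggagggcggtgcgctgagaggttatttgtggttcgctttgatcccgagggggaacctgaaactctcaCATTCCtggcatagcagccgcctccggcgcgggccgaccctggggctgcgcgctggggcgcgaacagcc
LATS2: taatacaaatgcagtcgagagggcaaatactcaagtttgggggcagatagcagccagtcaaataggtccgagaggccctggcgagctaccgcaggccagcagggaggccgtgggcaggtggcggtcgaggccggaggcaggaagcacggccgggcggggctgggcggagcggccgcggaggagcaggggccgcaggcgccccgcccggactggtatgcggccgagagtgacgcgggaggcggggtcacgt

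Across the 3 brain-derived groups, LATS2, AMOTL2 and TEAD1 stood higher in M-BM and in Lat than in S-BM, whereas YAP1 and WWTR1, the coactivators, were not called by limma in any comparison; DESeq2 called YAP1 higher in M-BM than in S-BM. CYR61, CTGF and TEAD4 rose in Lat, and AMOTL1 fell in M-BM. ANKRD1 was too low to be tested. The other 9 genes had values of at least 10 in all 12 brain-derived libraries, which was more than the filter required, and were tested with limma on log2(value + 1). Here "rose" and "fell" mean an adjusted p (Benjamini-Hochberg over 9646 tested genes) under 0.05. In M-BM against S-BM, 3 of the 9 genes rose and 1 fell, where 26.9% of all tested genes rose and 25.8% fell. In Lat against S-BM, 6 of the 9 rose by limma and by DESeq2 and 5 by edgeR, which did not call CTGF, where 30.2% of all tested genes rose and 29.4% fell by limma. None of the 9 fell in Lat by limma, edgeR or DESeq2 (0 also at an unadjusted p under 0.05, where limma had 31.4% of all tested genes lower). The median log2 fold change of the 9 genes was 0.30 for M-BM against S-BM and 0.50 for Lat against S-BM, against 0.01 over all tested genes in both. The M-BM and Lat comparisons share the same S-BM libraries.

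**Figure D1:**
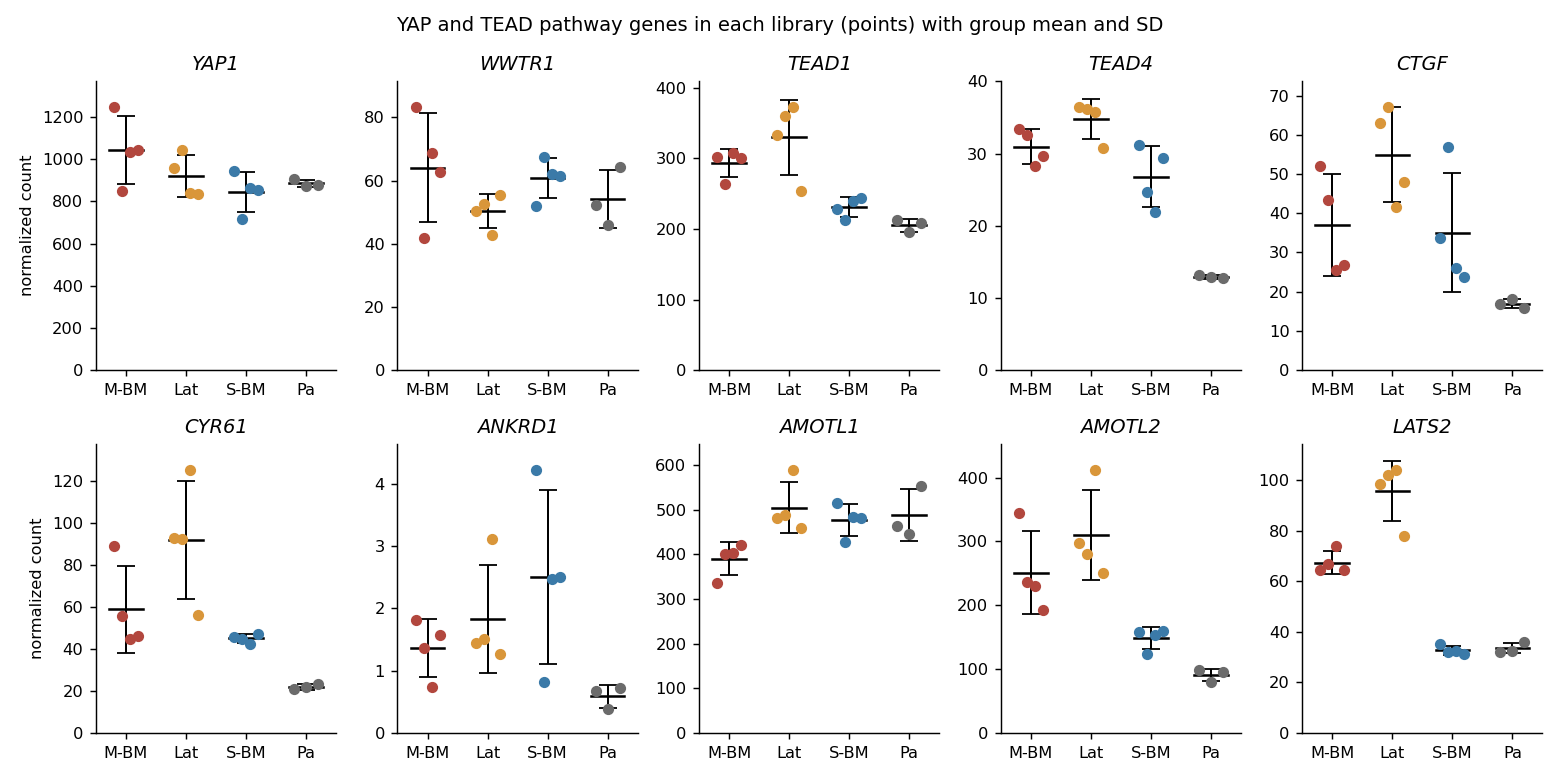
Normalized count (linear axis from 0, a separate scale per panel) of each of the 10 genes in every library, with points for libraries, lines for group means and bars for the SD; n = 4 in M-BM, Lat and S-BM and n = 3 in Pa. LATS2 forms levels of 64.3 to 74.1 in M-BM, 78 to 104 in Lat, 31.1 to 35.3 in S-BM and 32.1 to 35.8 in Pa, while YAP1 overlaps between all groups; Pa values come from a separately normalized table.

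YAP1, the main transcriptional coactivator of the pathway (chr11:102110461-102233423, plus strand), was the more abundant of the coactivator pair. It had normalized counts of 1245, 851, 1032 and 1041 in M-BM 1 to 4, of 957, 1041, 838 and 836 in Lat 1 to 4, and of 944, 715, 865 and 854 in S-BM 1 to 4. Most M-BM libraries were high, but M-BM 2 lay among the S-BM values, so the groups overlapped. The log2 fold change was 0.30 ± 0.13 (SE, adjusted p = 0.0594) for M-BM against S-BM, and 0.12 ± 0.13 for Lat against S-BM (adjusted p = 0.421). The M-BM difference lay at the edge of the threshold: it passed without M-BM 2 (0.39, adjusted p = 0.0181), without S-BM 1 (0.35, adjusted p = 0.0445), with DESeq2 (0.28, adjusted p = 0.0395) and with TMM scaling (0.31, adjusted p = 0.0476). It moved further from the threshold without M-BM 1 (0.21, adjusted p = 0.179), without S-BM 2 (0.22, adjusted p = 0.16) and without S-BM 3 and S-BM 4 together (0.33, adjusted p = 0.116).

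WWTR1, which encodes the YAP1 paralog TAZ (chr3:149517235-149736714, minus strand), was far lower. Its normalized counts were 83.2, 41.7, 68.7 and 62.7 in M-BM, 50.3, 52.7, 42.8 and 55.4 in Lat, and 52.1, 67.5, 62.2 and 61.5 in S-BM, each in library order. M-BM held both the highest and the lowest of these 12 values, and the groups overlapped. Its log2 fold change was 0.04 ± 0.17 (SE; adjusted p = 0.864; 95% interval −0.32 to 0.40) for M-BM and −0.27 ± 0.17 (adjusted p = 0.182) for Lat against S-BM; the M-BM value changed sign with a single library left out (−0.10 without M-BM 1, −0.01 without M-BM 3 and −0.03 without S-BM 1). Per kilobase of annotated exon, the level of YAP1 was 16.0 ± 2.42 times that of WWTR1 in M-BM, 17.5 ± 2.09 times in Lat and 13.5 ± 2.94 times in S-BM (SD, n = 4 each), and 15.9 ± 2.57 times in Pa (n = 3). The ratios overlapped between all groups.

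TEAD1, a DNA-binding partner through which YAP1 and TAZ reach their targets (chr11:12674591-12944483, plus strand), had normalized counts of 302, 264, 308 and 300 in M-BM. It had 333, 360, 372 and 253 in Lat and 228, 212, 240 and 244 in S-BM. Every M-BM and Lat library lay above every S-BM library, with Lat 4 and M-BM 2 closest to them. TEAD1 rose 1.27-fold in M-BM (log2 fold change 0.35 ± 0.11 SE, adjusted p = 0.0209) and 1.41-fold in Lat (0.50 ± 0.11, adjusted p = 0.00195) against S-BM. The M-BM call ended without M-BM 3 (0.32, adjusted p = 0.0557) or without S-BM 2 (0.30, adjusted p = 0.0522).

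TEAD4, its paralog (chr12:2959330-3040673, plus strand), was at 33.4, 32.5, 28.3 and 29.6 in M-BM, at 36.4, 36.2, 35.8 and 30.7 in Lat, and at 31.2, 24.7, 21.9 and 29.4 in S-BM (normalized counts). In Lat only library 4 lay within the S-BM range, and M-BM overlapped S-BM more widely. TEAD4 rose 1.30-fold in Lat against S-BM (by 0.37 ± 0.12 SE on the log2 scale, adjusted p = 0.0133), and its M-BM value was 0.21 ± 0.12 (adjusted p = 0.143). Without S-BM 3 and S-BM 4 the Lat value was 0.31 (adjusted p = 0.0646), and with S-BM 3 averaged with S-BM 4 and Lat 1 with Lat 2 it was 0.33 (adjusted p = 0.0539). Per kilobase, the ratio of TEAD1 to TEAD4 levels was 1.86 ± 0.236 in M-BM, 1.84 ± 0.181 in Lat, 1.71 ± 0.302 in S-BM and 3.09 ± 0.146 in Pa (SD), so the brain-derived groups overlapped each other and lay below Pa.

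CYR61 (CCN1; chr1:85580761-85583962, plus strand) and CTGF (CCN2; chr6:131948176-131951373, minus strand) encode secreted matricellular proteins and are the usual readouts of YAP1 and TEAD activity. CYR61 had normalized counts of 89.0, 55.8, 44.6 and 46.1 in M-BM, 92.9, 92.1, 125 and 56.3 in Lat, and 45.5, 44.8, 42.1 and 47.2 in S-BM. S-BM libraries were tightly grouped, all Lat libraries lay above them, and M-BM ran from the S-BM level up to the Lat level. CYR61 rose 1.94-fold in Lat against S-BM (log2 fold change 0.96 ± 0.23 SE, adjusted p = 0.00234), a call that held without S-BM 3 and S-BM 4 together (0.95, adjusted p = 0.0168). In M-BM its log2 fold change was 0.33 ± 0.23 (adjusted p = 0.24), and 0.11 (adjusted p = 0.662) without M-BM 1, the library at 89.0.

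CTGF, whose promoter held the 3 GGAATG copies shown above, had normalized counts of 52.1, 43.3, 25.6 and 26.9 in M-BM. It had 63.0, 67.0, 41.6 and 47.9 in Lat, and 33.8, 56.8, 26.0 and 23.7 in S-BM. S-BM 2 reached into the Lat range, and M-BM split into a higher and a lower pair. CTGF rose 1.61-fold in Lat against S-BM (by 0.69 ± 0.27 SE on the log2 scale, adjusted p = 0.0428). This call was fragile: it ended with edgeR (0.64, adjusted p = 0.0693), without Lat 1 (0.61, adjusted p = 0.102), Lat 2 (0.59, 0.116), Lat 4 (0.74, 0.0536), S-BM 1 (0.70, 0.0701), S-BM 3 (0.58, 0.112) or S-BM 4 (0.53, 0.125), without S-BM 3 and S-BM 4 together (0.29, adjusted p = 0.433), with S-BM 3 averaged with S-BM 4 and Lat 1 with Lat 2 (0.47, adjusted p = 0.235), and with no filter (0.69, adjusted p = 0.075). In M-BM the log2 fold change was 0.09 ± 0.27 (adjusted p = 0.79), and it was below 0 without M-BM 1, M-BM 2, S-BM 3 or S-BM 4 (lowest −0.09).

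ANKRD1 (chr10:90912096-90921276, minus strand), a nuclear ankyrin-repeat protein best known from heart muscle and a widely used YAP1 target gene, was at the low end of the assay. Its normalized counts were 1.82, 1.36, 0.73 and 1.57 in M-BM, 1.44, 1.50, 3.11 and 1.26 in Lat, and 4.22, 0.81, 2.47 and 2.50 in S-BM, which rest on 15 to 74 reads per library. The groups overlapped, with S-BM holding the highest value. With the filter lowered to a value of 1, the log2 fold change was −0.49 ± 0.29 (SE, adjusted p = 0.171) for M-BM and −0.26 ± 0.29 (adjusted p = 0.464) for Lat against S-BM. Neither value passed the threshold. The promoter window of ANKRD1 held the 2 GGAATG copies shown above, and a link between such copies and RNA levels was not tested.

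LATS2, one of the kinases that phosphorylate YAP1 and TAZ (chr13:20973032-21061547, minus strand), had the largest log2 fold changes of the 9 genes against S-BM. Its normalized counts were 64.3, 66.7, 74.1 and 64.5 in M-BM, 98.6, 102, 104 and 78.0 in Lat, and 35.3, 32.0, 32.5 and 31.1 in S-BM. The 3 groups formed separate levels that did not overlap: Lat highest, M-BM between and S-BM lowest. LATS2 rose 2.03-fold in M-BM (log2 fold change 1.02 ± 0.10 SE, adjusted p = 5.42e-06) and 2.85-fold in Lat (1.51 ± 0.10, adjusted p = 1.84e-07). Over 24 alternatives per comparison the log2 fold change lay between 0.86 and 1.05 for M-BM and between 1.30 and 1.60 for Lat, and every one was called.

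AMOTL2 (chr3:134355874-134375479, minus strand) encodes an angiomotin-like junction protein that binds YAP1 and holds it in the cytoplasm. It had normalized counts of 344, 237, 231 and 192 in M-BM, 297, 281, 412 and 251 in Lat, and 158, 123, 153 and 159 in S-BM. All M-BM and Lat libraries were above all S-BM libraries, and M-BM and Lat overlapped. AMOTL2 rose 1.66-fold in M-BM (log2 fold change 0.73 ± 0.18 SE, adjusted p = 0.00341) and 2.06-fold in Lat (1.05 ± 0.18, adjusted p = 1.87e-04), and both calls held in all alternatives.

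AMOTL1 (chr11:94706431-94876753, plus strand), a paralog that also binds YAP1, went the other way in M-BM. Its normalized counts were 336, 401, 403 and 422 in M-BM, 482, 488, 589 and 460 in Lat, and 514, 427, 483 and 482 in S-BM. Every M-BM library was below every S-BM and every Lat library, with the top of M-BM close to S-BM 2. AMOTL1 fell 1.22-fold in M-BM against S-BM (log2 fold change −0.29 ± 0.10 SE, adjusted p = 0.03), and its Lat value was 0.08 ± 0.10 (adjusted p = 0.518). The M-BM call ended without M-BM 1 (−0.22, adjusted p = 0.0938), S-BM 1 (−0.25, 0.0793), S-BM 3 (−0.28, 0.0623) or S-BM 4 (−0.28, 0.0616), without S-BM 3 and S-BM 4 together (−0.27, adjusted p = 0.122), and with S-BM 3 averaged with S-BM 4 and Lat 1 with Lat 2 (−0.28, adjusted p = 0.0797).

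**Figure D2:**
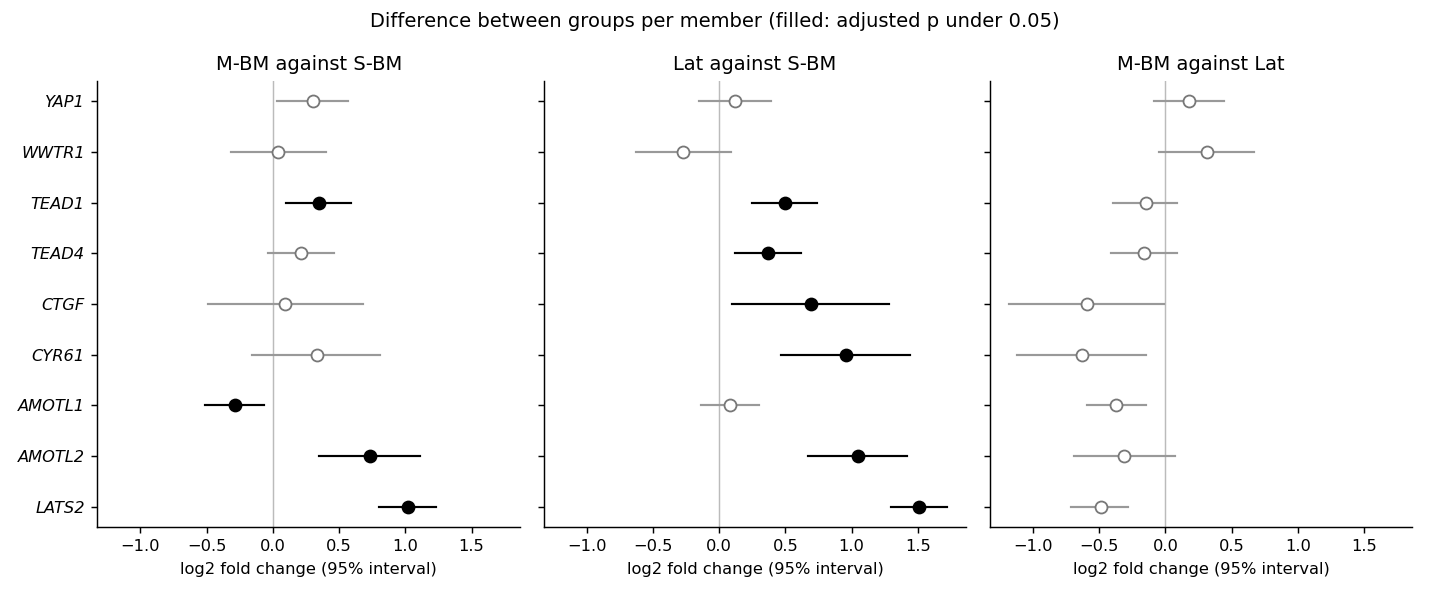
Log2 fold change (x axis, first-named group over second) with its 95% interval for the 9 tested genes in the 3 comparisons of brain-derived groups; filled points have an adjusted p under 0.05 in limma, open points do not. LATS2 has the largest value in M-BM against S-BM (1.02) and in Lat against S-BM (1.51), and no gene is filled in M-BM against Lat.

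The metachronous and latent groups were compared directly, which is also the test of whether their differences from S-BM differ. None of the 9 genes was called by limma, and 0 were called by edgeR, while DESeq2 called AMOTL1 and LATS2, both lower in M-BM. Over all tested genes, 0.0933% were called higher and 0.0518% lower in M-BM. At an unadjusted p under 0.05, limma had 4 of the 9 genes lower in M-BM (CYR61, CTGF, AMOTL1 and LATS2) and 0 higher, where 4.54% of all tested genes were lower and 6.33% higher at that threshold. LATS2, with 67.4 ± 4.59 in M-BM and 95.5 ± 11.9 in Lat (normalized count, SD, n = 4 each), had a log2 fold change of −0.49 ± 0.10 (SE, adjusted p = 0.07) and no overlap. It was called with Lat 4, the lowest Lat library, left out (−0.58, adjusted p = 0.0258). AMOTL1, with 390 ± 37.3 in M-BM and 505 ± 57.5 in Lat, also had no overlap (−0.37 ± 0.10, adjusted p = 0.189). CYR61 (−0.63 ± 0.23, adjusted p = 0.324) and CTGF (−0.59 ± 0.27, adjusted p = 0.455) overlapped between the groups. YAP1 was at 0.18 (95% interval −0.09 to 0.44), so its direction between these groups was within the error.

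A moderated F test over M-BM, Lat and S-BM together called 6 of the 9 genes (TEAD1, TEAD4, CYR61, AMOTL1, AMOTL2 and LATS2), beside 56.8% of all tested genes. LATS2 had an F of 118 (adjusted p = 3.90e-07), followed by AMOTL2 with 18.5 (5.21e-04), TEAD1 with 9.94 (0.00542) and CYR61 with 9.30 (0.00682). YAP1 (2.86, adjusted p = 0.136), WWTR1 (1.99, 0.234) and CTGF (3.72, 0.0825) were not called.

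The parental line has a table of its own that was normalized separately, so its levels, scaled by 1.006, are set beside the others with no test. TEAD4, CTGF, CYR61 and AMOTL2 were higher in every library of all 3 brain-derived groups than in every Pa library. TEAD4 was at 13.2, 12.9 and 12.7 in Pa 1 to 3, and the M-BM mean was 2.39 times, the Lat mean 2.69 times and the S-BM mean 2.07 times the Pa mean. CYR61 was at 20.8, 21.6 and 23.3 in Pa, and the group means were 2.69, 4.18 and 2.05 times the Pa mean in M-BM, Lat and S-BM. These genes thus already stood above Pa in S-BM.

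CTGF was at 16.9, 18.2 and 15.9 in Pa (2.17 times that mean in M-BM, 3.22 times in Lat, 2.06 times in S-BM). AMOTL2 was at 98.0, 80.4 and 94.8 in Pa (2.76, 3.41 and 1.63 times in M-BM, Lat and S-BM). LATS2 followed another order, since its Pa values of 32.1, 32.6 and 35.8 overlapped those of S-BM, and its mean was 2.01 times the Pa mean in M-BM, 2.85 times in Lat and 0.98 times in S-BM. TEAD1 was at 212, 195 and 209 in Pa and likewise overlapped S-BM only. YAP1 (905, 873 and 879 in Pa) and WWTR1 (52.2, 46.1 and 64.3) overlapped Pa in all 3 groups. AMOTL1 (464, 446 and 554 in Pa) was lower in all M-BM libraries, at 0.80 times the Pa mean. ANKRD1 was at 0.666, 0.377 and 0.714 in Pa, on 6 to 13 reads, below every brain-derived library. The nearest of these, M-BM 3, was at 0.73 on 15 reads, a gap too small to tell from counting error.

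Of the 9 tested genes, 6 were higher than Pa without overlap in M-BM (33.5% of 10056 genes over the filter were) and 1 was lower (33.7%). In Lat 6 were higher (35.2%) and 0 lower (36.8%). In S-BM 4 were higher (21.5%) and 0 lower (21.5%). The median log2 ratio of the 9 genes to Pa was 0.99 in M-BM, 1.36 in Lat and 0.17 in S-BM, against 0.00, −0.01 and 0.00 over all genes. With S-BM 1 left out, 1 gene (YAP1, whose other S-BM libraries were at 715 to 865, against 873 to 905 in Pa) was lower in S-BM than in Pa.

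**Figure D3:**
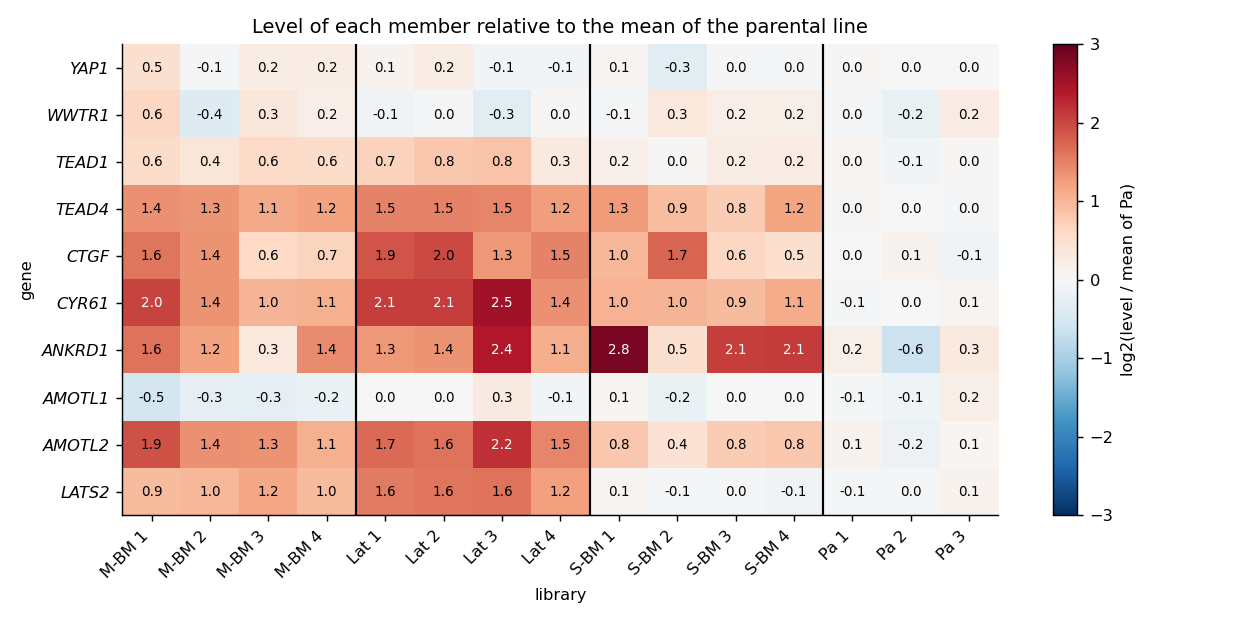
Log2 ratio of each library's level to the mean of the 3 Pa libraries (color and printed number) for the 10 genes in rows and all 15 libraries in columns, grouped as M-BM, Lat, S-BM and Pa; the Pa table was normalized separately and scaled by 1.006. The TEAD4, CTGF, CYR61 and AMOTL2 rows are above 0 in all 12 brain-derived libraries, the LATS2 row is near 0 in S-BM, and the YAP1 and WWTR1 rows change sign within groups.

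The other TEAD factors, and the vestigial-like cofactors that bind TEAD in place of YAP1, were mostly lower in M-BM and Lat than in S-BM. Of 6 listed genes 4 could be tested: 3 fell in M-BM and 4 in Lat against S-BM, none rose (0 by limma, edgeR or DESeq2, and 0 at an unadjusted p under 0.05), and the median log2 fold change was −1.12 in M-BM and −1.58 in Lat. Of all tested genes, 25.8% fell in M-BM and 29.4% in Lat by limma. TEAD2, a TEAD1 paralog, was at 18.3, 23.6, 13.2 and 22.7 in M-BM, 12.8, 11.4, 5.18 and 14.5 in Lat, and 50.7, 71.1, 49.9 and 51.4 in S-BM (normalized counts). The M-BM and Lat libraries all lay far below the S-BM libraries, and Pa was higher still (79.5 to 80.9). TEAD2 fell 2.81-fold in M-BM (log2 fold change −1.49 ± 0.26 SE, adjusted p = 3.03e-04) and 4.96-fold in Lat (−2.31 ± 0.26, adjusted p = 5.57e-06).

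VGLL1, a TEAD cofactor of epithelial and placental cells, was at 10.7 ± 8.44 in M-BM, 10.4 ± 4.31 in Lat and 56.1 ± 13.0 in S-BM (normalized count, SD, n = 4 each), without overlap between S-BM and the others. It fell 5.87-fold in M-BM (adjusted p = 2.90e-04) and 5.25-fold in Lat (adjusted p = 3.45e-04). VGLL4, which competes with YAP1 for TEAD, was at 31.8 ± 3.73 in M-BM, 29.4 ± 2.37 in Lat and 53.6 ± 2.33 in S-BM, and fell 1.67-fold (adjusted p = 4.51e-05) and 1.80-fold (adjusted p = 8.36e-06). TEAD3 had the smallest difference: it fell 1.27-fold in Lat (adjusted p = 0.0158), a call that ended with S-BM 3 averaged with S-BM 4 and Lat 1 with Lat 2 (−0.35, adjusted p = 0.0563). It had a log2 fold change of −0.26 ± 0.11 (adjusted p = 0.065) in M-BM, which passed without M-BM 2 (−0.33, adjusted p = 0.0275) or Lat 4 (−0.26, adjusted p = 0.0475). VGLL2 had no read in any library, so it was below the floor of 3 reads. VGLL3 was at 5.59 to 7.47 in Pa and at 0 to 0.443 in the brain-derived libraries.

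The 17 conserved targets other than the members were taken from a published signature of YAP1, TAZ and TEAD, and they moved in both directions. Of 15 that were tested, 6 rose and 6 fell in M-BM, and 6 rose and 4 fell in Lat against S-BM, with a median log2 fold change of 0.01 in both, the same as over all tested genes. Among all tested genes, 26.9% rose and 25.8% fell in M-BM, and 30.2% rose and 29.4% fell in Lat. AXL, a receptor tyrosine kinase, was at 778, 478, 358 and 272 in M-BM, 433, 411, 329 and 351 in Lat, 50.0, 7.03, 109 and 114 in S-BM, and 4.59 to 9.24 in Pa (normalized counts). S-BM 2 lay far below the other S-BM libraries, and no S-BM library reached the M-BM or Lat values. AXL rose 9.16-fold in M-BM (log2 fold change 3.20 ± 0.63 SE, adjusted p = 8.96e-04) and 7.95-fold in Lat (2.99 ± 0.63, adjusted p = 0.0011). The size depended on which S-BM libraries were used: without S-BM 2 the log2 fold change was 2.34 in M-BM and 2.13 in Lat, and without S-BM 3 and S-BM 4 it was 4.43 in M-BM and 4.23 in Lat, called each time.

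FOXF2, a forkhead transcription factor, rose 4.87-fold in M-BM (9.56 ± 1.61 there and 1.19 ± 0.486 in S-BM; adjusted p = 3.16e-06) and 5.51-fold in Lat (10.9 ± 1.76, adjusted p = 8.89e-07), on the log2(value + 1) scale that understates folds of low genes. It passed the filter only through 2 M-BM and 2 Lat libraries, the groups where it was high, so a difference was in part a condition of its being tested; with no filter the adjusted p was 1.29e-05 in M-BM and 4.02e-06 in Lat. NUAK2, a kinase related to AMPK, rose 2.01-fold in M-BM (adjusted p = 0.00153) and 3.36-fold in Lat (adjusted p = 1.34e-05). In the other direction, IGFBP3, which binds insulin-like growth factors, fell 3.61-fold in M-BM (150 ± 66.1 there and 506 ± 89.7 in S-BM; adjusted p = 2.75e-04) and 5.20-fold in Lat (99.9 ± 31.0, adjusted p = 2.42e-05). NT5E (CD73) fell 1.77-fold in Lat (adjusted p = 8.53e-04) and 1.51-fold in M-BM (adjusted p = 0.00921). CCDC80 fell 2.06-fold in M-BM (adjusted p = 6.15e-04) and 1.51-fold in Lat (adjusted p = 0.0183), where it overlapped S-BM. CRIM1 fell 1.55-fold in M-BM (adjusted p = 0.00507) and 1.33-fold in Lat (adjusted p = 0.0406). Its Lat call ended without Lat 3 (−0.29, adjusted p = 0.128), Lat 4 (−0.39, 0.0843), S-BM 1 (−0.43, 0.0616), S-BM 2 (−0.38, 0.0825), S-BM 3 (−0.41, 0.0711) or S-BM 4 (−0.43, 0.0582), without S-BM 3 and S-BM 4 together (−0.44, adjusted p = 0.101), and with no filter (−0.41, adjusted p = 0.0641). That call also ended with S-BM 3 averaged with S-BM 4 and Lat 1 with Lat 2 (−0.49, adjusted p = 0.0508).

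**Figure D4:**
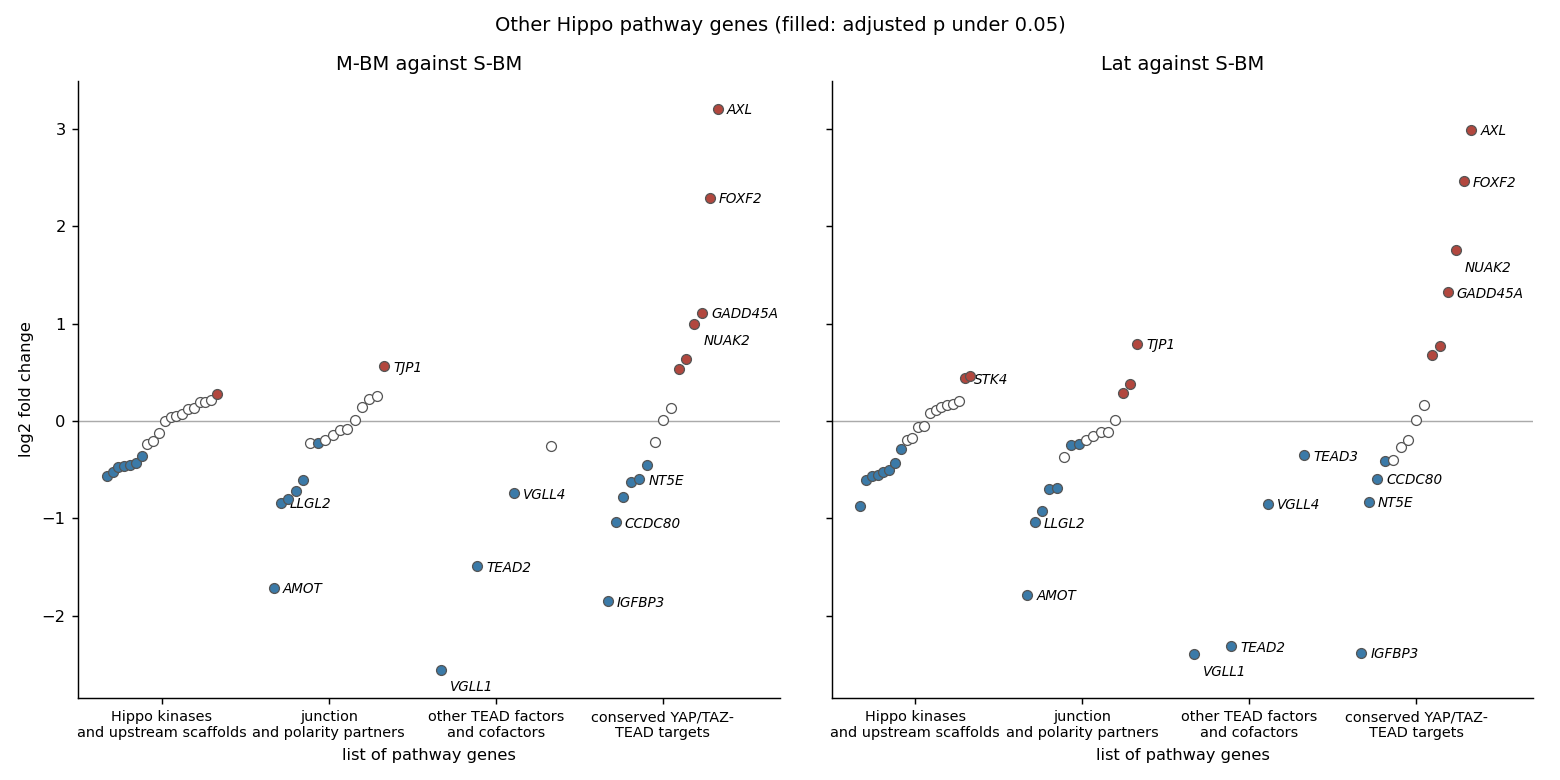
Log2 fold change (y axis) of each tested gene in 4 lists of other Hippo pathway genes, for M-BM against S-BM (left) and Lat against S-BM (right), ordered within each list by size; filled points have an adjusted p under 0.05 in limma (red higher, blue lower), open points do not. The TEAD factors and cofactors all lie below 0, and the conserved targets run from IGFBP3 (−1.85 in M-BM and −2.38 in Lat) to AXL (3.20 and 2.99).

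The kinases and upstream scaffolds that feed into LATS2 were mostly not called or lower. Of 20 tested, 1 rose, 7 fell and 12 were not called in M-BM against S-BM (median log2 fold change −0.06), and 2 rose, 8 fell and 10 were not called in Lat (−0.12). Over all tested genes, 26.9% rose and 25.8% fell in M-BM, and 30.2% rose and 29.4% fell in Lat. MOB1B, a coactivator of LATS kinases, fell 1.38-fold (adjusted p = 0.00873) in M-BM and 1.48-fold (adjusted p = 0.00216) in Lat. MAP4K2, a kinase that can activate LATS, fell 1.43-fold in M-BM (adjusted p = 0.00875) and 1.53-fold in Lat (adjusted p = 0.00248), and both calls ended once S-BM 3 and S-BM 4 were dropped (adjusted p = 0.138 in M-BM and 0.0524 in Lat). WWC2, a scaffold for LATS kinases, rose 1.22-fold in M-BM (adjusted p = 0.0134). STK4 (MST1), the upstream kinase, rose 1.35-fold in Lat (adjusted p = 0.00238).

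Among junction and polarity proteins, 16 were tested: 1 rose and 6 fell in M-BM against S-BM (median log2 fold change −0.17), and 3 rose and 7 fell in Lat (−0.21). Without S-BM 3 and S-BM 4 the Lat comparison called 5 of these genes in place of 10. The shares over all tested genes were 26.9% risen and 25.8% fallen in M-BM, and 30.2% and 29.4% in Lat. AMOT, the angiomotin paralog of AMOTL1 and AMOTL2, was at 3.30 to 12.9 in M-BM, 2.85 to 8.30 in Lat, 11.5 to 76.6 in S-BM and 68.1 to 89.6 in Pa (normalized counts). S-BM spanned nearly the whole distance between the low Lat libraries and Pa. AMOT fell 3.44-fold in Lat against S-BM (by −1.78 ± 0.52 SE on the log2 scale, adjusted p = 0.00963), whereas AMOTL2 rose and AMOTL1 was not called in Lat. In M-BM, which overlapped S-BM, AMOT fell 3.27-fold (adjusted p = 0.0141). AMOT passed the filter through its S-BM libraries, where it was high, and with no filter its adjusted p was 0.0221 in Lat and 0.031 in M-BM. S-BM 3 and S-BM 4 held the lowest S-BM values of AMOT (12.2 and 11.5, against 28.8 and 76.6 in S-BM 1 and S-BM 2). Without them too few libraries reached the filter value, so AMOT no longer passed the filter and was not tested. LLGL2, a cell polarity protein, fell 1.80-fold in M-BM (adjusted p = 5.11e-05) and 2.05-fold in Lat (adjusted p = 5.55e-06), and the scaffold DLG1 fell 1.65-fold (adjusted p = 4.85e-04) and 1.90-fold (adjusted p = 4.79e-05). LIMD1, a LIM protein that binds LATS kinases, fell 1.74-fold in M-BM (adjusted p = 5.95e-04) and 1.62-fold in Lat (adjusted p = 0.00121). The tight junction protein TJP1 rose 1.73-fold in Lat (adjusted p = 2.29e-04) and 1.48-fold in M-BM (adjusted p = 0.00362), where it overlapped S-BM.

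Between M-BM and Lat themselves, limma and edgeR called 0 genes of these 4 lists, and DESeq2 called NUAK2, which was lower in M-BM (27.4 ± 3.32) than in Lat (49.3 ± 21.8). At an unadjusted p under 0.05, limma had genes that included STRN4, FAT1 and TEAD2 higher and STK4, NUAK2 and CCDC80 lower in M-BM.

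YAP1 lies on chromosome 11 beside BIRC2 and BIRC3, which encode inhibitors of apoptosis, and its neighbours were called in both directions. Of 8 neighbouring genes 4 were tested, and 2 rose and 2 fell in both M-BM and Lat against S-BM. For all tested genes the shares were 26.9% risen and 25.8% fallen in M-BM, and 30.2% and 29.4% in Lat. BIRC3 rose 2.05-fold in M-BM (129 ± 31.6 there and 62.9 ± 15.8 in S-BM; adjusted p = 0.00788) and 3.27-fold in Lat (219 ± 105, adjusted p = 1.75e-04). BIRC2 rose 1.62-fold (adjusted p = 1.45e-04) in M-BM and 1.44-fold (adjusted p = 8.55e-04) in Lat. MMP7, a matrix protease, fell 3.55-fold in M-BM (7.55 ± 3.09 there and 31.1 ± 19.1 in S-BM; adjusted p = 6.73e-04) and 4.93-fold in Lat (5.07 ± 1.74, adjusted p = 7.85e-05). It too passed the filter through its S-BM libraries, and with no filter the adjusted p was 0.0022 in M-BM and 3.32e-04 in Lat. Without S-BM 3 and S-BM 4, MMP7 no longer passed the filter and was not tested. TMEM123 fell 1.89-fold in Lat (adjusted p = 3.59e-05) and 1.32-fold in M-BM (adjusted p = 0.0152). The M-BM call ended without M-BM 3 (−0.35, adjusted p = 0.0535), without S-BM 3 and S-BM 4 together (−0.41, adjusted p = 0.0613), and with no filter (−0.41, adjusted p = 0.0704). Between M-BM and Lat, limma and edgeR called 0 of these neighbours. DESeq2 called TMEM123, which was higher in M-BM (1945 ± 179) than in Lat (1380 ± 251).

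The tested genes whose pattern over the 12 brain-derived libraries was most like each member were listed for the 5 members with the largest F. Values are Pearson correlations of log2(value + 1) over 12 libraries that share the same group structure, given as a description. LATS2 was closest to ABL2, a tyrosine kinase (0.992), ZBTB43 (0.991) and ZC3H12C (0.989). AMOTL2 was closest to ZIC2 (0.980), CPNE1 (0.979) and IRS2, an insulin receptor substrate (0.967). TEAD1 was closest to ZFR (0.959), RRM1, a ribonucleotide reductase subunit (0.956), and RNF8, a ubiquitin ligase (0.954).

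CYR61 was closest to RND3 (0.946), to C1orf63 (0.942) and to WWC1, a scaffold for LATS kinases (0.927). AMOTL1 was closest to PDE4DIP (0.875), FOXRED1 (0.852) and TRAM2 (0.813). With the group means removed, the correlation with LATS2 was 0.834 for ABL2, 0.798 for ZBTB43 and 0.850 for ZC3H12C. For AMOTL2 it was 0.918 for ZIC2, 0.922 for CPNE1 and 0.894 for IRS2. These genes were picked for their correlation over the same 12 libraries, so the values describe them and support nothing further.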

How the data were processed

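RNA was measured in 15 libraries of HCC1954 cells. Per the labels' protocols, total RNA was extracted with an RNeasy kit and sequenced from TruSeq libraries, a kit that does not mark strand. The submitters' processing notes name Bowtie 0.12.2 and GRCh38; no source used here gives the read counter, annotation or normalization. The signal values deposited by the authors are normalized counts per gene and library, with column sums of 963150 to 1026297. M-BM, Lat and S-BM share 1 table and Pa has another. In every column 100% of values were whole multiples of 1 step within 0.05 reads, so reads were recovered from them.

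M-BM, Lat and S-BM were fitted together with limma 3.58.1 (R 4.3.3) on log2(value + 1), with a variance trend and 9 residual degrees of freedom. Genes needed a value of at least 10 in at least 4 of 12 libraries, which left 9646. Two-sided p-values were adjusted over these genes by the Benjamini-Hochberg method, with a threshold of 0.05. Fold changes are on the log2(value + 1) scale. edgeR 4.0.16 and DESeq2 1.42.0 on the recovered reads were alternatives, beside other pseudocounts, filters and scalings and libraries left out. The scripts were tested on simulated data.

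The labels give the groups shared replicate numbers. Residuals of same-numbered libraries correlated at −0.272 to 0.319, with 4 of 12 pairs over 0.1. Those of libraries with other numbers correlated at −0.305 to 0.322, with 7 of 36 over 0.1. These ranges do not settle whether the numbers mark pairs. The labels do not state a pairing, and the numbers were not taken as pairs in the main fit. The closest libraries were S-BM 3 to S-BM 4 and Lat 1 to Lat 2 (chi-square per degree of freedom 4.08 and 4.86). They differed by more than sampling noise, which does not show that they are independent samples. They were counted separately in the main fit. Spreadsheet dates replaced 27 names.

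The 10 genes and all lists were chosen with earlier results of these data known. Named beside them were called list genes whose groups did not overlap (up to 3 per direction, list and comparison), all genes of the list of TEAD factors and cofactors, and the 3 best correlated genes for the 5 members with the largest F; some genes that this rule names are not reported here. Markers DCN, LUM, CLDN5, AQP4, P2RY12 and RBFOX3 were not analysed here. Positions and exon lengths come from a GENCODE annotation of GRCh38, and promoters from RefSeq.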

Additional observations from a re-analysis of the deposited data

Results flagged for a closer look

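Among 30 groups of 4 libraries (10 genes in M-BM, Lat and S-BM), 4 held a library whose distance to its nearest neighbour, as a share of the group's range, passed Dixon's 95% limit; chance alone passes it in about 1 group in 20. TEAD1 in M-BM 2 was at 264, below 300 to 308 in the other M-BM libraries. TEAD4 in Lat 4 was at 30.7, below 35.8 to 36.4 in the other Lat libraries. ANKRD1 in Lat 3 was at 3.11, above 1.26 to 1.50 in the others, on 60 reads. AMOTL2 in S-BM 2 was at 123, below 153 to 159 in the other S-BM libraries. The causes were not tested. Without S-BM 2, AMOTL2 stayed called in M-BM and in Lat against S-BM, and without Lat 4, TEAD4 stayed called in Lat.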

How the results depend on the processing

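Each comparison was repeated under up to 24 alternatives. Against S-BM, 3 to 5 of the 9 genes were called in M-BM and 4 to 6 in Lat, and TEAD1, CYR61, AMOTL2 and LATS2 in Lat and AMOTL2 and LATS2 in M-BM were called in all of them. With the replicate block, 4 members were called in M-BM and 6 in Lat against S-BM, 0 in M-BM against Lat, and 7 in place of 6 in the F test, so the block changed no call between pairs of groups. In M-BM against Lat, DESeq2 called 2 of the 9 genes in place of 0, 1 other pathway gene (NUAK2) and 1 neighbour of YAP1 (TMEM123). Leaving out single libraries gave 0 to 1 member there. Over all genes that comparison had 14 calls, against 26 with a filter at a value of 1, 24 with no filter, 141 with DESeq2, 5 with only these groups in the fit, 2 with the closest pairs averaged, and 2 to 30 with 1 library left out. The log2 fold change of M-BM against S-BM turned for CTGF (0.09) to −0.30 without S-BM 3 and S-BM 4 and to −0.04 with the closest pairs averaged, and ran from −0.09 to 0.35 with 1 library left out; for WWTR1 (0.04) that range was −0.10 to 0.23. Members lower in S-BM than in Pa numbered 0, and 1 without S-BM 1. The causes were not tested. ANKRD1 had few reads, VGLL3 had few in the brain-derived libraries, and VGLL2 had none, which limits what can be said of them. With 4 libraries a group, small differences in YAP1 and WWTR1 cannot be resolved.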
